A study of Mus musculus with 5 samples.

Results

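MHC class I presentation genes were examined in bulk RNA sequencing of hematopoietic stem cells (HSCs) sorted from bone marrow. The 9 genes were taken by name from the 55335 genes of the table. They are B2m, the heavy chain genes H2-K1, H2-D1, H2-T23 and H2-Q7, the peptide loading genes Tap1, Tap2 and Tapbp, and the regulator Nlrc5. All 9 were found once each, and all 9 were among the 13981 genes that reached 1 TPM (transcripts per 1000000, a share of the length-corrected transcripts of a library) in at least 2 libraries and were tested.

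The libraries number 3 for wild-type and 2 for RankCre-ki mice, all from mice of 3 weeks of age, and the number in each library name, read as sorted cells, was 80 to 90. HSCs were Kit+ Sca-1+ lineage-negative cells with CD150 and without CD48. RankCre-ki mice carry 1 Cre knock-in allele of Rank (RankCre-ki/wt) together with a floxed and a null allele of Csf1r (Csf1rfl/-). Per its methods and results, the study used this Cre for embryonic macrophages, and it is not expressed in HSCs, so the mice lack those macrophages and osteoclasts, and HSCs were compared to learn how they differ when these cells are missing. The other 3 libraries are labelled only as wild-type. The labels give the strain C57BL/6J for all 5 libraries, whereas the study kept its Csf1r null line on C3H/HeJ. These strains carry different H2 haplotypes, so a difference in H2 alleles and the loss of macrophages cannot be told apart in the RankCre-ki libraries.

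Class I molecules display peptides from inside the cell to CD8 T cells and NK cells. A polymorphic heavy chain pairs with beta-2 microglobulin in the endoplasmic reticulum, where peptides cut by the proteasome arrive through the TAP transporter and are loaded with the help of tapasin. Nearly all nucleated cells carry class I, and interferon signalling and the regulator NLRC5 raise its transcription. HSCs also carry class I molecules, which T cells and NK cells of a host read after a transplant.

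7 of the 9 genes lie in the H2 complex on chromosome 17 (GRCm38), and all 9 are annotated as protein coding. From Tapbp (ENSMUSG00000024308, 33915899 to 33929292) the order runs through H2-K1 (ENSMUSG00000061232, 33996017 to 34000347), Tap1 (ENSMUSG00000037321, 34187553 to 34197225) and Tap2 (ENSMUSG00000024339, 34203527 to 34216321). It continues with H2-D1 (ENSMUSG00000073411, 35262730 to 35267499), H2-Q7 (ENSMUSG00000060550, 35439155 to 35443773) and H2-T23 (ENSMUSG00000067212, 36029773 to 36032855). B2m (ENSMUSG00000060802) lies on chromosome 2 from 122147686 to 122153083 and Nlrc5 (ENSMUSG00000074151) on chromosome 8 from 94434356 to 94527272. Tap1 and the immunoproteasome gene Psmb9 run in opposite directions from starts 211 bases apart and share 212 bases, and the sources used here do not state the use of strand, so reads from that stretch cannot be assigned to either gene. By whole gene spans, introns included, B2m also overlaps Patl2 on the opposite strand, H2-T23 its antisense gene A930015D03Rik and Nlrc5 9330175E14Rik. Tap2 likewise overlaps Gm20496 and Gm15821, and Tapbp overlaps Gm19412. Tapbp shares 3422 bases with Zbtb22 on the same strand. Whether exons are shared in these pairs was not examined, and Patl2 was at most 6.52 TPM in any library.

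RefSeq promoters (GRCm38.p6) were found for 7 of the 9 genes, for all but Tap2 and Nlrc5. The 200 bases before the start site are shown for B2m and the 4 heavy chain genes, because these hold the shared elements through which class I transcription is known to be controlled. For H2-K1 the more downstream of its 2 listed start sites is shown. Capitals mark a kappa B element (GGGG, any base, TTCCC), an interferon response element in a full form (GAAA, any 2 bases, GAAA) or a short form (GAA, any 2 bases, GAAA), the core of a cAMP response element (TGACG) and a CCAAT box (CCAAT), each searched on both strands.
B2m (chr2:122147487-122147686, plus strand): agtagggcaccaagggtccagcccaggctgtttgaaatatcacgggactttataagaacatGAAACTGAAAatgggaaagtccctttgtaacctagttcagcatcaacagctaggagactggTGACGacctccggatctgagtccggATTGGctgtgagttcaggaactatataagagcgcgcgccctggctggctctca
H2-K1 (chr17:34000334-34000533, minus strand): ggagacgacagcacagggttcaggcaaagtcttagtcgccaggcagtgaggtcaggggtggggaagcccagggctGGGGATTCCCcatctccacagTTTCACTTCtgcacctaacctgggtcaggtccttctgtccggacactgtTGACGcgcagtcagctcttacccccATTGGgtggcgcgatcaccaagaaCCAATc
H2-D1 (chr17:35262894-35263093, plus strand): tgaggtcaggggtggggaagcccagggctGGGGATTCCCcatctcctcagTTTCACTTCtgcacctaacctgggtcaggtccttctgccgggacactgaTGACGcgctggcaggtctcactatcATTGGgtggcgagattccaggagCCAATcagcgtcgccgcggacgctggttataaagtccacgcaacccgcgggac
H2-Q7 (chr17:35438955-35439154, plus strand): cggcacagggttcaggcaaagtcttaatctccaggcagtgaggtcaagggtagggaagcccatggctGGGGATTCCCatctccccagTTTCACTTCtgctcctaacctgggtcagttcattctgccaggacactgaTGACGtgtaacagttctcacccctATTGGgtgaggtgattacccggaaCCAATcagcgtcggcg
H2-T23 (chr17:36032702-36032901, minus strand): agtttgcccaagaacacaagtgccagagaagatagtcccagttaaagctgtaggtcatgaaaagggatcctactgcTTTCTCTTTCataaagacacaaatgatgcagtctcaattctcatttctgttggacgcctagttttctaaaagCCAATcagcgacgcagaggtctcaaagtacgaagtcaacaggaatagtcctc

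H2-K1, H2-D1 and H2-Q7 each hold a kappa B element followed by a short interferon response element, then TGACG and CCAAT. In the 250 bases searched, the identity was 87.4% between H2-K1 and H2-D1 over 190 aligned bases, 88.2% between H2-K1 and H2-Q7 over 203, and 85.8% between H2-D1 and H2-Q7 over 211. A kappa B match was found in 0.457% of all 32851 promoter windows of the same length, a full interferon response element in 2.98%, a short one in 6.31%, TGACG in 17.8% and CCAAT in 33.8%. B2m holds the full interferon response element, TGACG and CCAAT, and H2-T23 the full interferon response element and CCAAT. In Tap1 only TGACG and CCAAT were found, and in Tapbp only CCAAT. No element overlaps another in the 5 promoters shown. These matches describe letters and not binding.

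The heavy chain genes are related in sequence, and the question of whether their values can be told apart was put to the GENCODE M21 transcripts. Of all stretches of 100 bases, the length of the study's reads, 0.957% of H2-K1, 3.59% of H2-D1, 3.15% of H2-T23 and 12.0% of H2-Q7 also occur in a transcript of another gene. H2-Q7 shares most with H2-Q10, H2-Q5 and H2-Q6 and is the least certain of the 9. B2m, Tap1, Tap2 and Nlrc5 share none and Tapbp shares 0.0775%. This measure holds for the C57BL/6J reference and was not made for H2 alleles of C3H/HeJ.

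The libraries differed before any comparison of genes. Genes at 1 TPM or more numbered 9021 to 11084 in the wild-type and 12801 and 16386 in the libraries labelled RankCre-ki, and over all tested genes the median log2 fold change was 0.52. The mitochondrial share of TPM was 14.7%, 21% and 16.7% for wild-type and 10.7% and 8.21% for RankCre-ki libraries, and the 10 highest genes held 18.1% to 27.4% against 12.6% and 12.2%, so these measures also separated the groups. Wild-type replicate 1 and RankCre-ki replicate 2 share one style of library name and the other 3 libraries another. These are called name series 1 and 2. The study describes 2 tagmentation kits, 1 used for 1 RankCre-ki and 1 control sample and the other for 1 RankCre-ki and 2 control samples. These numbers match the name series, but the sources used here do not say which library was made with which kit. Sex genes followed the name series, with Xist at 0.0229 and 0.0273 TPM and the Y-linked Eif2s3y at 62.5 and 41.6 TPM in RankCre-ki replicate 2 and wild-type replicate 1, against 5.16 to 22.5 TPM and 0 to 0.288 TPM in series 2, although RankCre-ki replicate 2 is labelled female. The targeted gene Csf1r was not lower in the libraries labelled RankCre-ki, with 17.5 and 6.46 TPM against 0 to 2.39 TPM in the wild-type, and Tnfrsf11a (Rank) had 0.0811 and 1.47 TPM against 0.0806 to 2.08 TPM. The HSC markers Kit, Ly6a, Slamf1, Mecom, Hlf, Procr and Fgd5 each reached 1 TPM in every library, except Fgd5 in wild-type replicate 1 at 0.184 TPM. The pools hold few cells, and in bulk RNA fewer cells of a type and less RNA per cell cannot be told apart.

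B2m, the light chain common to class I molecules, was among the highest transcripts of all 5 libraries. Its level was 5611, 11256 and 8685 TPM across wild-type replicates 1 to 3, against 10985 and 5700 TPM across RankCre-ki replicates 1 and 2, and it ranked between 7 and 25 among the tested genes of a library. The groups overlapped fully, and the lowest values were those of the 2 libraries of name series 1. The means were 8517 ± 2826 TPM (SD, n = 3) and 8343 ± 3737 TPM (SD, n = 2). The log2 fold change was -0.05 ± 0.47 (SE; limma adjusted p = 0.996), and it was -0.56 with median-ratio scaling, while its sign turned under quantile normalization (0.09) and with the name series as a block (0.10).

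**Figure D1:**
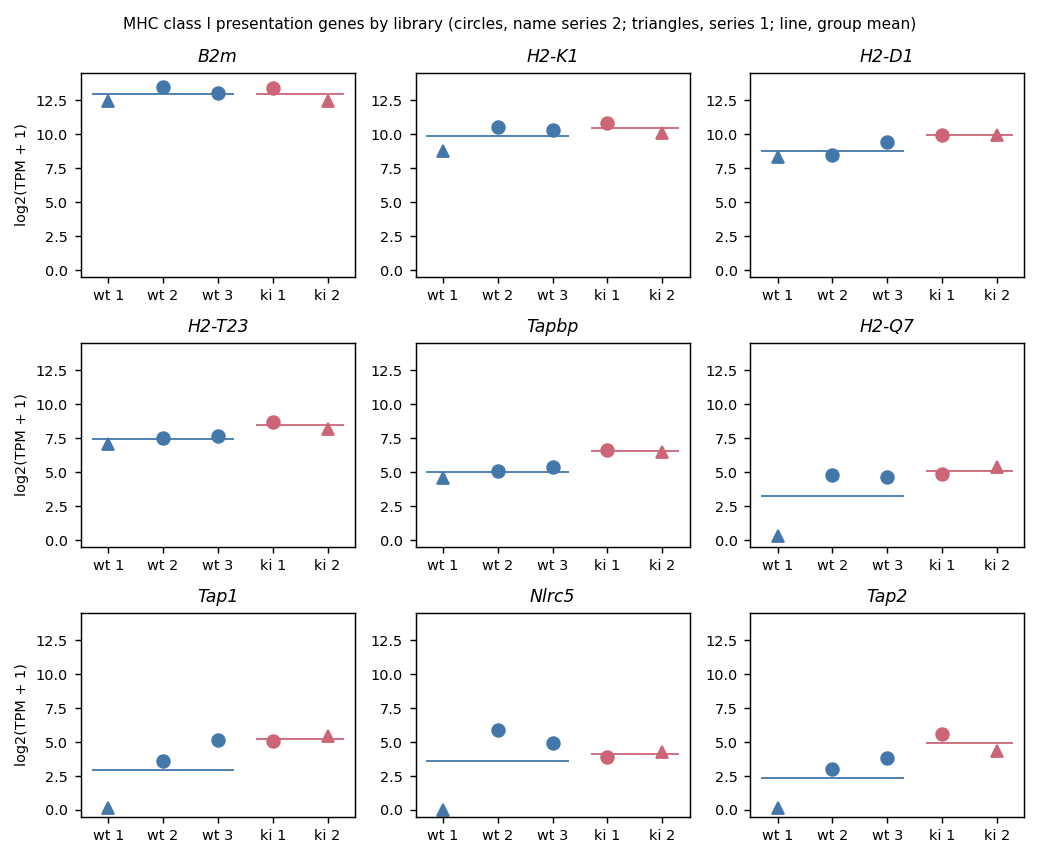
Level of each gene in each library as log2(TPM + 1), with wild-type replicates (wt 1 to 3) in blue, RankCre-ki replicates (ki 1 and 2) in red, triangles for name series 1, circles for name series 2 and lines for group means. H2-D1, H2-T23 and Tapbp are higher in both RankCre-ki libraries, by 1.03 to 1.53 in the group means, and H2-Q7, Tap1, Tap2 and Nlrc5 lie near 0 in wild-type replicate 1.

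H2-K1 and H2-D1 encode the classical heavy chains of the C57BL/6 haplotype, which present to CD8 T cells. H2-K1 gave 426, 1475 and 1297 TPM across wild-type replicates 1 to 3, against 1786 and 1097 TPM across RankCre-ki replicates 1 and 2. The groups overlapped, with wild-type replicate 1 far below the other 4 libraries, and the log2 fold change was 0.58 ± 0.59 (SE; limma adjusted p = 0.948). Without wild-type replicate 1 it was 0.02. H2-D1 gave 316, 349 and 711 TPM across wild-type replicates 1 to 3, against 976 and 999 TPM across RankCre-ki replicates 1 and 2. The RankCre-ki values were both higher than any wild-type value, with means of 459 ± 219 TPM (SD, n = 3) and 988 ± 16.0 TPM (SD, n = 2). The difference on the log2 scale was 1.20 ± 0.46 (SE; limma adjusted p = 0.613), which exceeds the median of all tested genes by 0.69.

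H2-T23 encodes Qa-1, a nonclassical heavy chain that presents leader peptides of other class I chains to receptors on NK cells. It gave 133, 186 and 205 TPM across wild-type replicates 1 to 3, against 424 and 292 TPM across RankCre-ki replicates 1 and 2, without overlap. The log2 fold change was 1.03 ± 0.44 (SE; limma adjusted p = 0.721). The change was nearly the same in both name series, 1.13 in series 1 and 1.12 in series 2. H2-Q7 encodes Qa-2, a nonclassical heavy chain that can be held to the membrane by a lipid anchor. It gave 0.214, 26.3 and 23.4 TPM across wild-type replicates 1 to 3, against 27.7 and 41.2 TPM across RankCre-ki replicates 1 and 2. The groups did not overlap, but apart from wild-type replicate 1 the lowest RankCre-ki value and the highest wild-type value lay close together. The log2 fold change of 1.90 ± 1.45 (SE; limma adjusted p = 0.916) became 0.43 without wild-type replicate 1.

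Tapbp encodes tapasin, which holds empty class I molecules next to the TAP transporter. It gave 22.2, 32.8 and 40.9 TPM across wild-type replicates 1 to 3, against 96.6 and 86.3 TPM across RankCre-ki replicates 1 and 2. Both RankCre-ki values were more than 2 times the highest wild-type value, and the SDs were 9.36 TPM (n = 3) and 7.28 TPM (n = 2) around means of 32 and 91.4 TPM. The log2 fold change was 1.53 ± 0.60 (SE; limma adjusted p = 0.633), which exceeds the median of all tested genes by 1.01. It was 1.91 in name series 1 and 1.37 in series 2, and 1.29 (limma adjusted p = 0.564) without wild-type replicate 1.

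Tap1 and Tap2 encode the subunits of the peptide transporter. Tap1 gave 0.0785, 11.4 and 34.9 TPM across wild-type replicates 1 to 3, against 33.1 and 42.0 TPM across RankCre-ki replicates 1 and 2. Wild-type replicate 3 lay between the RankCre-ki values, so the groups overlapped, and the log2 fold change was 2.29 ± 1.48 (SE; limma adjusted p = 0.888). Tap2 gave 0.104, 7.15 and 13.2 TPM across wild-type replicates 1 to 3, against 46.6 and 19.1 TPM across RankCre-ki replicates 1 and 2. Its groups did not overlap, and its log2 fold change of 2.62 ± 1.39 (SE; limma adjusted p = 0.868) was the highest of the 9. Without wild-type replicate 1 the log2 fold changes of Tap1 and Tap2 were 0.86 and 1.52.

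Nlrc5 encodes the transactivator that drives class I genes together with RFX and NF-Y factors. It was listed at 0 in wild-type replicate 1 and gave 58.4 and 28.8 TPM in the other wild-type libraries, against 14.2 and 18.1 TPM across RankCre-ki replicates 1 and 2. The wild-type values thus lay on both sides of the RankCre-ki values. The log2 fold change was 0.49 ± 1.71 (SE; limma adjusted p = 0.992) and turned to -1.30 ± 0.71 (SE; limma adjusted p = 0.591) without wild-type replicate 1. Nlrc5 was the only member whose change differed in sign between the name series, with 4.26 in series 1 and -1.47 in series 2, and that difference was not tested.

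None of the 9 genes passed the threshold of an adjusted p of at most 0.1 with an absolute log2 fold change above 2. In this limma fit the share called over all tested genes was 0%. The study applied its threshold to a different test, made on fragment counts, and reported genes that passed it in both directions. At an unadjusted limma p under 0.05 there were 3 members, H2-D1, H2-T23 and Tapbp, all higher in the RankCre-ki libraries, against 6.87% of all tested genes in either direction and 6.34% that were higher. For 5 of the 9 members (H2-D1, H2-T23, H2-Q7, Tap2 and Tapbp) the RankCre-ki values were both higher than any wild-type value, against 18.8% of all tested genes, and for 0 members both were lower than any wild-type value, against 3.71%. The log2 fold change was above 0 for 8 of 9 members and for 72.3% of tested genes. The median over the members was 1.20 and over all genes 0.52.

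**Figure D2:**
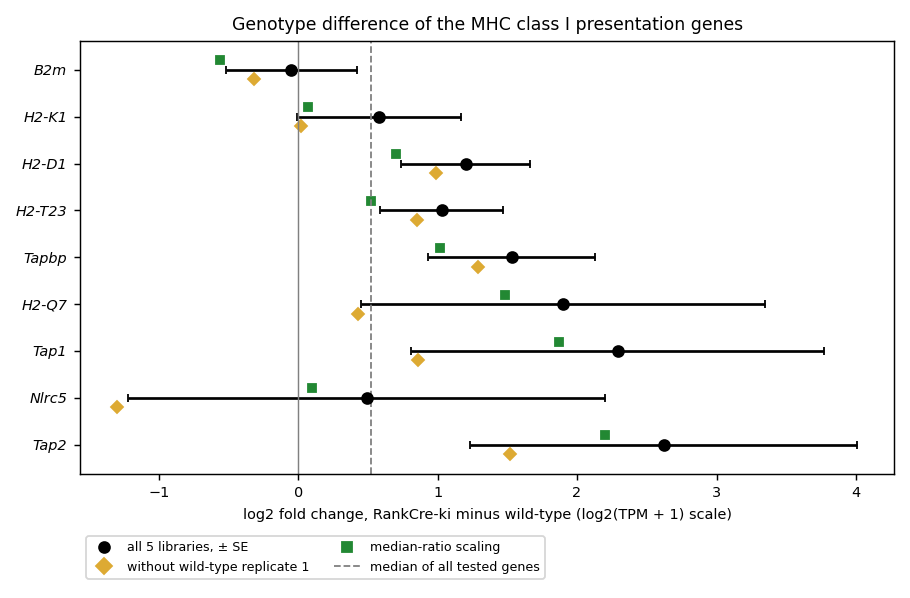
Log2 fold change of each gene, RankCre-ki minus wild-type, on the log2(TPM + 1) scale, with black circles and SE bars for all 5 libraries, diamonds for the fit without wild-type replicate 1, squares for median-ratio scaling and a dashed line at the median of all tested genes (0.52). Tapbp, H2-D1 and H2-T23 have short bars to the right of the dashed line in the fit of all libraries, whereas Nlrc5 moves from 0.49 to -1.30 without wild-type replicate 1.

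The scale of the libraries bears on these counts. After median-ratio scaling the median over all genes was 0.16 and over the members 0.70. At an unadjusted limma p under 0.05 there were then 0 members, against 6.92% of tested genes in either direction and 4.56% that were higher. TPM rescaled over nuclear genes leaves out the mitochondrial share that differed between the groups. There 1 member (H2-D1) was under that limit, against 6.3% of tested genes in either direction and 5.62% that were higher. The log2 fold changes of H2-D1, H2-T23 and Tapbp were then 1.07, 0.90 and 1.40, beside 1.20, 1.03 and 1.53 on the deposited scale. The part of library quality in the values of these 3 genes was not tested. After quantile normalization the medians over all genes and over the members were -0.09 and 1.07. H2-D1, H2-T23 and Tapbp were again under 0.05, against 4.41% of tested genes in either direction and 3.04% that were higher. Of the genes with an unadjusted p under 0.05, 92.3% were higher in RankCre-ki libraries as deposited, 65.9% with median-ratio scaling and 69.0% with quantile normalization. With the name series as a block, H2-K1, H2-D1, H2-T23, Tap2 and Tapbp had an unadjusted limma p under 0.05, against 8.89% of tested genes that were higher at that limit, and the smallest adjusted p among the members was 0.203 (H2-T23).

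Wild-type replicate 1 held the lowest value of each of the 9 members, while it was the lowest library for 29.8% of all tested genes. In it H2-Q7, Tap1, Tap2 and Nlrc5 were all below 1 TPM, whereas in the other 4 libraries each of these was at 7.15 TPM or more. Such low values were common in that library. Among the 4590 tested genes with a mean of 10 to 50 TPM in the other 4 libraries, 26.6% were below 1 TPM in wild-type replicate 1, and the same share, taken for each library against its other 4, was 21.1% and 8.44% in wild-type replicates 2 and 3 and 4.07% and 3.89% in the RankCre-ki libraries. TPM holds no record of depth, so whether these are absent transcripts or unsampled ones was not tested. Without this library the median over the members was 0.85 against 0.51 for all genes, and 1 member (Tapbp, higher) had an unadjusted limma p under 0.05, against 6.68% of tested genes that were higher at that limit.

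The change was also read within each name series. In series 1 RankCre-ki replicate 2 was above wild-type replicate 1 for 9 of 9 members, against 64.4% of tested genes. In series 2 RankCre-ki replicate 1 was above both wild-type replicates 2 and 3 for 6 of 9 members, against 45.4%, and below both for 1 member (Nlrc5), against 17.7%. The median change of the members was 1.91 in series 1 and 0.69 in series 2, where all genes had 0.53 and 0.40. 8 of 9 members had a change above 0 in both series, against 44.5% of tested genes.

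**Figure D3:**
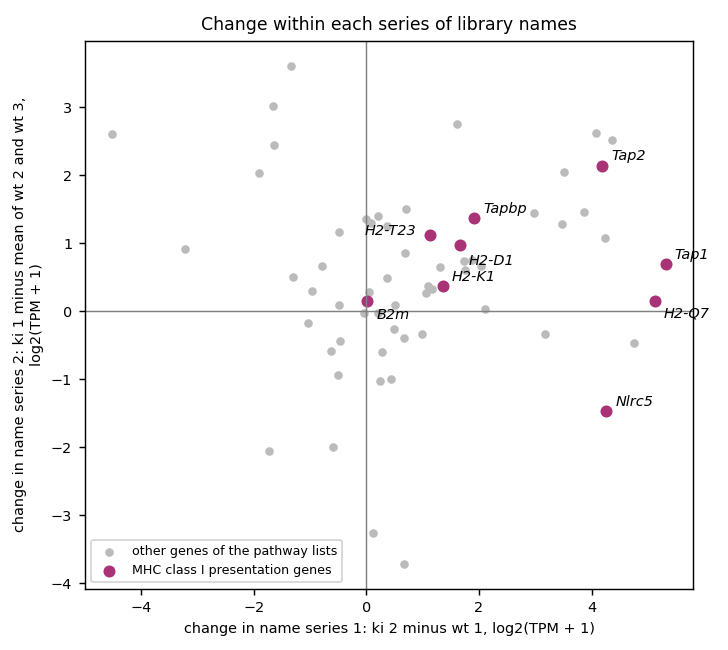
Change of each gene within name series 1 (horizontal axis, RankCre-ki replicate 2 minus wild-type replicate 1) and within name series 2 (vertical axis, RankCre-ki replicate 1 minus the mean of wild-type replicates 2 and 3), both on the log2(TPM + 1) scale, with grey points for the other genes of the pathway lists. 8 of the 9 class I presentation genes have values above 0 on both axes and Nlrc5 lies at 4.26 and -1.47.

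Because TPM is corrected for length, levels may be ordered between genes. By the mean of log2(TPM + 1) over the 5 libraries the order was B2m, H2-K1, H2-D1, H2-T23, Tapbp, H2-Q7, Tap1, Nlrc5 and Tap2. B2m lay above H2-K1 by 2.88 ± 0.51 (SD, n = 5), H2-K1 above H2-D1 by 0.88 ± 0.74, H2-D1 above H2-T23 by 1.38 ± 0.39, H2-T23 above Tapbp by 2.23 ± 0.31 and Tapbp above H2-Q7 by 1.63 ± 1.56 on that scale, each in 5 of 5 libraries. The last 4 genes, H2-Q7, Tap1, Nlrc5 and Tap2, differed from their neighbours by 0.09 to 0.41 with SDs of 0.64 to 1.68, so their order is within the spread.

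The rank within a library does not depend on its total. Tapbp stood at the percentiles 72.5, 77.1 and 77.1 of the tested genes in the wild-type and at 88.3 and 89.5 in the RankCre-ki libraries. H2-T23 stood at 93.6, 94.6 and 94.8 against 97.8 and 97.1, and H2-D1 at 97.1, 97.3 and 98.8 against 99.1 and 99.0. These 3 genes thus kept groups without overlap by rank. H2-K1 stood between 97.9 and 99.5 in all libraries and B2m at 99.8 or above. Tap2 stood at 20.6, 53.3 and 55.4 against 77.3 and 63.4, also without overlap, whereas H2-Q7 stood at 23.6, 73.7 and 66.9 against 67.7 and 79.2 and overlapped.

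**Figure D4:**
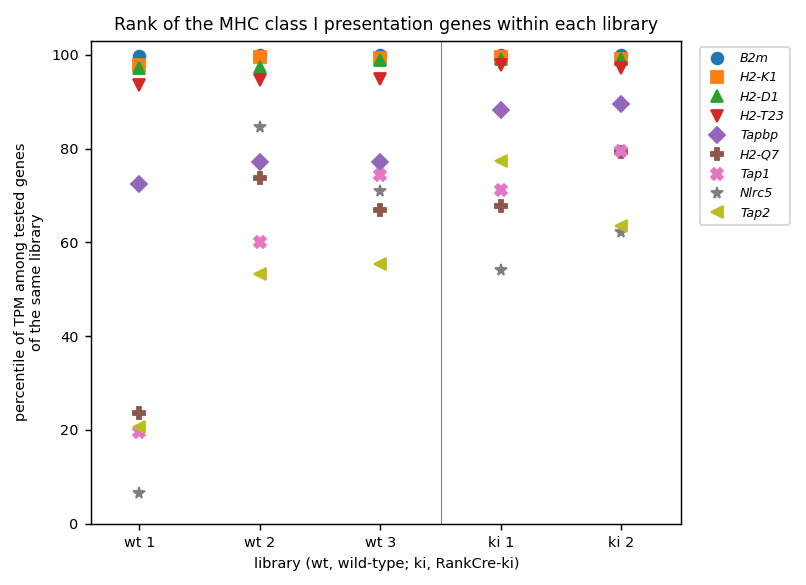
Percentile of each gene's TPM among the 13981 tested genes of the same library, for wild-type replicates (wt 1 to 3, left of the line) and RankCre-ki replicates (ki 1 and 2). Tapbp stands at 72.5 to 77.1 in the wild-type and at 88.3 and 89.5 in the RankCre-ki libraries, and H2-Q7, Tap1, Tap2 and Nlrc5 drop below 25 in wild-type replicate 1.

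The heavy chain transcripts were summed over 17 H2 class I genes of the table, which is less open to the sharing of reads between them. The sum was 1070, 2249 and 2371 TPM in the wild-type and 3424 and 2587 TPM in the RankCre-ki libraries, without overlap on the deposited scale. Divided by the median-ratio factors the sum was 1277, 2606 and 1976 against 2481 and 1945, and the groups overlapped. H2-K1 and H2-D1 together held 69.4% of it in wild-type replicate 1 and 80.7% to 84.7% in the other 4 libraries, and H2-T23 held 12.5%, 8.3% and 8.6% against 12.4% and 11.3%. There were 5.24, 5.01 and 3.66 B2m transcripts per heavy chain transcript in the wild-type and 3.21 and 2.20 in the RankCre-ki libraries. The ratio was thus lower in both RankCre-ki libraries. In RankCre-ki replicate 1 the heavy chain sum was above that of every wild-type library, whereas in replicate 2 it was close to those of wild-type replicates 2 and 3 and B2m was lower than in them. H2-K1 per H2-D1 was 1.35, 4.22 and 1.83 against 1.83 and 1.10 and overlapped.

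**Figure D5:**
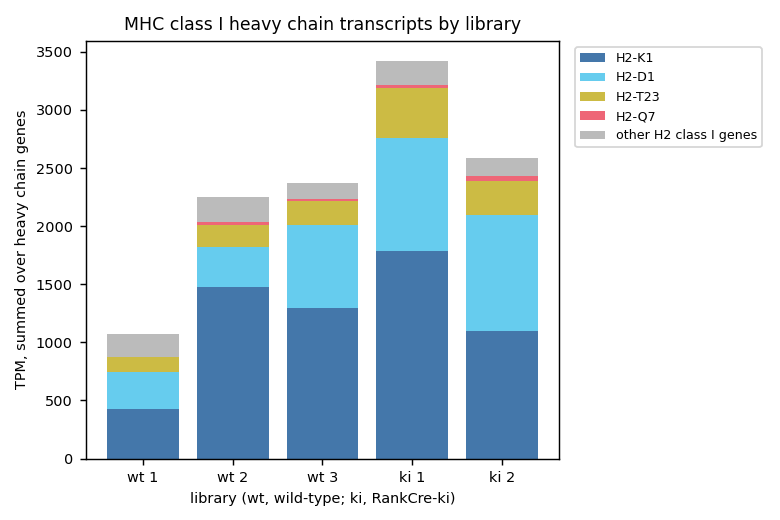
TPM of the MHC class I heavy chain genes stacked by library, with H2-K1, H2-D1, H2-T23 and H2-Q7 in color and the other 13 H2 class I genes in grey. On the deposited scale the total runs from 1070 to 2371 TPM in the wild-type and is 3424 and 2587 TPM for RankCre-ki replicates 1 and 2.

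Other genes of the pathway were taken from lists made by role. Of 63 listed genes 60 were in the table and 55 were tested, and 0 passed the threshold. At an unadjusted limma p under 0.05 there was 1 gene, H2-Ob (1.82%), against 6.87% of all tested genes. That share also stands beside the count of each list below. The median over the 55 genes was 0.51, beside 0.52 over all genes. For 10 of the 55 genes the RankCre-ki values were both higher than any wild-type value (18.2%, against 18.8% of all tested genes).

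Among the other heavy chain genes (10 tested, 0 under 0.05), H2-Q5 gave 4.19, 1.85 and 5.43 TPM across wild-type replicates 1 to 3, against 27.8 and 14.8 TPM across RankCre-ki replicates 1 and 2. H2-Q6, which shares sequence with H2-Q7, was at 1.34, 12.3 and 18.3 TPM against 32.9 and 43.1 TPM. Their log2 fold changes were 2.22 ± 1.17 and 2.20 ± 1.15 (SE; limma adjusted p = 0.864 for both). At the low end, H2-K2 had -0.79 and H2-T10 gave 12.7, 19.9 and 10.9 TPM across wild-type replicates 1 to 3, against 2.78 and 3.15 TPM across RankCre-ki replicates 1 and 2, with -1.93 ± 1.12 (SE; limma adjusted p = 0.881). H2-T22, named after its values were seen, was also lower in both RankCre-ki libraries, at 88.0, 97.6 and 69.7 TPM against 54.9 and 56.5 TPM. The chains known as T10 and T22 are nonclassical and can be bound by gamma delta T cells. In the reference annotation H2-T10 and H2-Q5 are polymorphic pseudogenes and H2-K2 a transcribed pseudogene. The ratio of H2-T23 to H2-T22, chosen after its values were seen, was 1.52, 1.91 and 2.94 in the wild-type and 7.72 and 5.17 in the RankCre-ki libraries.

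In the peptide loading and trimming list (7 tested, 0 under 0.05) the groups of every gene overlapped. The glycoprotein chaperone Calr, at 22, 35.9 and 93.1 TPM against 99.1 and 83.1 TPM, had a log2 fold change of 1.09, and the aminopeptidase Lnpep had 1.19. The tapasin relative Tapbpl had -0.76 and the trimming peptidase Erap1 -0.46. Tapbp per Canx, a ratio to another chaperone of the same compartment chosen after its values were seen, was 0.538, 0.366 and 0.210 in the wild-type and 0.604 and 0.990 in the RankCre-ki libraries.

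The genes of the immunoproteasome, which cuts peptides for class I, and of the proteasome activator PA28 had a median of -0.03 with 0 of 5 under 0.05. Psmb8 had -0.16, Psmb9 0.52, Psmb10 -0.03, Psme1 0.78 and Psme2 -0.93 as log2 fold changes. Psmb9, the neighbour of Tap1, gave 40.4, 104 and 106 TPM across wild-type replicates 1 to 3, against 132 and 91.5 TPM across RankCre-ki replicates 1 and 2, and so was well detected in wild-type replicate 1, where Tap1 was at 0.0785 TPM. Among the class I-like genes (4 tested, 0 under 0.05), Mr1, which presents vitamin metabolites, was at 0.175, 0 and 25.8 TPM against 28.7 and 23.2 TPM. Cd1d1, which presents lipids, had 0.51, its neighbour Cd1d2, annotated as a polymorphic pseudogene, had 0.36, and Fcgrt, the neonatal Fc receptor, had -0.06.

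Of the regulators of class I transcription 19 were tested, 0 were under 0.05, and the median was 0.60. The interferon gamma receptor chain Ifngr2 was at 0.0799, 0.507 and 10.7 TPM against 24.8 and 17.2 TPM (3.02 ± 1.47, SE; limma adjusted p = 0.813). The NF-kappa B subunit Rela, which binds kappa B elements like those shown above, was at 2.51, 2.03 and 21.8 TPM against 33.3 and 39.1 TPM (2.57 ± 1.21, SE; limma adjusted p = 0.789). The RFX subunit Rfxap was at 0.324, 26.7 and 53.0 TPM against 1.95 and 1.09 TPM (-2.34 ± 1.77, SE; limma adjusted p = 0.916, and -3.96 without wild-type replicate 1), and the NF-Y subunit Nfyc had -0.74.

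MHC class II genes were listed because they mark professional antigen presenting cells. Of 10 tested, H2-Ob, a chain of the class II molecule DO, was under the unadjusted limit of 0.05 (log2 fold change 2.39 ± 0.87 SE, limma adjusted p = 0.574). Its level was at most 0.0872 TPM in the wild-type, against 1.46 and 11 TPM across RankCre-ki replicates 1 and 2. H2-Eb1 had 2.44, Cd74, the invariant chain, was at 4.92, 104 and 74.9 TPM against 8.29 and 5.37 TPM (-2.23), and H2-Ab1 was at 12.1, 81.8 and 33.2 TPM against 12.3 and 7.62 TPM (-1.64). Of the 10 class II genes 5 had a log2 fold change above 0 and 5 below it, beside 72.3% of all tested genes above 0. Without wild-type replicate 1 the log2 fold change was -3.54 for Cd74, -2.32 for H2-Ab1 and -3.96 for Rfxap (limma adjusted p = 0.564 for each). In that fit 4 of the 55 listed genes, these 3 and Psme2 (-1.37), were lower at an unadjusted limma p under 0.05, against 2.07% of tested genes. At the same limit 0 were higher, against 6.68% of tested genes.

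Markers of cells excluded by the sort were examined because those cells carry class I as well. Among B cell markers Cd79a was listed at 0 in all libraries, and the summed TPM, mostly Cd79b, was 37.7 to 147 in the wild-type and 69.5 and 31.1 in the RankCre-ki libraries. Of 8 macrophage and monocyte markers Adgre1 was at 0 throughout, and the sum, mostly Lyz2, was 228 to 313 against 332 and 157. Itgam was at 7.3 TPM in RankCre-ki replicate 2 and at most 0.187 TPM elsewhere. Fcgr1 was at 2.42 TPM in RankCre-ki replicate 1 and 0 elsewhere. Groups overlapped for Cd68, C1qb and Lyz2, and Mertk and C1qa were at most 0.385 TPM in any library. Of 4 dendritic cell markers Itgax was at 0 throughout and the sum was 0 to 0.832 against 0.524 and 4.25. For 6 T and NK cell markers the sum was 1 to 45.7 against 30.7 and 44.0, with Klrb1c at most 0.0516 TPM in the wild-type and 4.40 and 12.8 TPM in RankCre-ki replicates 1 and 2, and Cd3e at 5.95 TPM in RankCre-ki replicate 2 and 0 elsewhere. Of 3 endothelial markers Cdh5 was at most 0.0572 TPM in any library, and the sum, mostly Emcn, was 23.5 to 61.7 against 52.5 and 23.7. For erythroid markers the sum, mostly Hbb-bt, was 67.8 to 124 against 252 and 637. Cd48, the gene of a surface protein that the sort gate excludes, had 0 TPM in each wild-type library and 4.92 and 5.62 TPM in RankCre-ki replicates 1 and 2. The part of such cells in the values of H2-D1, H2-T23 and Tapbp was not tested.

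The genes whose profile over the 5 libraries was most like the median profile of the 9 members were Snhg1, Shmt2, Atp5a1, Uap1l1 and Stmn1. Likeness was the distance between log2(TPM + 1) profiles centred on their means, among 7120 genes whose mean reached 10 TPM, and it was 0.187 to 0.317 for these genes beside a median of 2.34. Snhg1, the closest, gave 28, 58.5 and 76.7 TPM across wild-type replicates 1 to 3, against 125 and 109 TPM across RankCre-ki replicates 1 and 2. None of the 5 is a class I gene.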

How the data were processed

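HSCs of 3 wild-type and 2 RankCre-ki samples were sequenced from pools of sorted cells by a full-length poly(A) protocol with template switching. The authors deposited TPM per gene, and each library summed to 1000000. Per the study, reads were aligned to mm10 with gsnap and counted with featureCounts 2.0.1 for its own test; the tool that made the TPM is not given in the sources used here. Values between 0 and 1e-06 TPM (179 values) do not come from whole fragments. TPM gives no depth, so the only measure of precision is the spread between samples, which may be technical. The table held 55427 rows, of which 92 spike-in rows at 0 were removed. Of the gene identifiers 99.7% matched GENCODE M21 (GRCm38, the build called mm10).

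log2(TPM + 1) was compared with limma 3.58.1 in R 4.3.3 (moderated by eBayes along a mean-variance trend; two-sided and without covariates) for the 13981 genes that reached 1 TPM in 2 or more libraries, with Benjamini-Hochberg adjustment over all of them and the study's threshold. Fold changes on this scale understate low genes. The study used its threshold with another test, on fragment counts and with weighted hypotheses, and found genes passing it. The numbers of genes called here hold for limma on TPM only, and why the tests differ was not tested. The limma code was tested on simulated data. Alternatives were the pseudocount (0.1), the filter (5 TPM, or none), median-ratio and quantile scaling, nuclear genes, a replicate block, a name series block, no trend, and leaving out each library. The members and lists were chosen with earlier results of these data known. All 9 members are named. From each list the 2 highest and 2 lowest fold changes are named, or all genes of a list with 5 or fewer tested. The 5 genes of most similar profile are also named. No columns of the authors' comparisons were in the table. H2-Q8, H2-Q9 and H2-T9 were not analysed here, and single values of some cell type markers are not reported here. Sequences are from RefSeq.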

Additional observations from a re-analysis of the deposited data

How the results depend on the processing

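With 3 against 2 libraries and no depth, precision rests on the spread between libraries. Of 126 fold changes of single members under the 14 alternatives, 5 turned direction, 4 of B2m and 1 of Nlrc5, and the other 7 members kept theirs under every alternative. The filters and the fit without a trend leave the fold change of a member as it was, so those settings could not turn it. B2m had 0.09 after quantile normalization and 0.10 with the name series block, and it ran from -0.52 to 0.42 when single libraries were left out, with 0.18 without wild-type replicate 2 and 0.42 without RankCre-ki replicate 2. Nlrc5 ran from -1.30 (without wild-type replicate 1) to 1.64. No member was called under any alternative, and the adjusted p of single members ran from 0.203 to 1.

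Members with an unadjusted limma p under 0.05 numbered 3, beside 6.87% of all tested genes. The number was 0 after median-ratio scaling (6.92% of all tested genes) and 0 without a mean-variance trend (6.99%). It was 1 for TPM rescaled over nuclear genes (H2-D1, beside 6.3%), 1 with the replicate block (Tap1, beside 4.04%) and 5 with the name series block (10.1%). Leaving out wild-type replicate 1, 2 or 3 gave 1 (Tapbp), 0 and 2 members, beside 8.75%, 4.53% and 10% of all tested genes. Members higher in every RankCre-ki library numbered 4 to 6, against 11.6% to 33.8% of all tested genes. The pseudocount, the filters, the blocks and the trend cannot change an order of libraries, so they do not test this count. Leaving out a library can only keep or raise it. The median over the members ran from 0.70 to 1.57, and that over all tested genes from -0.09 to 0.87. All genes called numbered 0, 1 with the replicate block, and 0 to 304 without single libraries, with 1 without wild-type replicate 1 and 304 without RankCre-ki replicate 1, where the lone library is assumed to vary like the wild-type. Pathway genes called ran from 0 to 1 (H2-Ob, 304 genes being called in that same fit). The causes were not tested. The replicate numbers are only names: the deviations of libraries numbered 1 correlated at -0.38 across genes and of those numbered 2 at -0.195, so the block says nothing of pairing.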

Other observations

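The stretch of chromosome 17 from Tapbp to H2-T23 (33915899 to 36032855, GRCm38) was looked at because 7 of the 9 members lie in it, a choice made after their values were seen. It holds 90 other tested genes, which include class II, complement and many unrelated genes. For 29 of the 90 (32.2%) the RankCre-ki values were both higher than any wild-type value, against 18.8% of all tested genes, and for 2 both were lower. The median log2 fold change of the 90 was 1.14, 0.63 above that of all genes, with 0.97 in name series 1 and 1.07 in series 2. At an unadjusted limma p under 0.05 there were 9 of 90 (10%), all higher, against 6.34% of all tested genes that were higher at that limit, and 0 passed the threshold.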
